A study of Mus musculus with 2 samples.

Results

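The clustered protocadherins were measured by total RNA sequencing in hippocampal tissue of 2 male mice aged 36 days. Their strain, B6CASTF1/J, is the F1 hybrid of C57BL/6J and CAST/EiJ. The mice form 1 group with no treatment named in the labels, and each library was made from 300 ng of RNA. Both samples carry the same donor identifier but different biosamples and replicate numbers, so they were read as separate animals, and which layer of the hippocampus was dissected is not given. Genes were chosen by symbol, all those named Pcdha, Pcdhb or Pcdhga, gb or gc, which took 58 of 55536 annotated mouse genes: 14 in the α cluster, 22 in the β cluster and 22 in the γ cluster.

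Clustered protocadherins are cadherin-like adhesion proteins of neurons that bind only matching protocadherins on another membrane. Each neuron expresses its own combination of them, chosen promoter by promoter with the help of the insulator protein CTCF, cohesin and DNA methylation, and this serves to tell a neuron's own branches from those of others. An α or γ messenger RNA joins a variable exon, which encodes the extracellular and membrane-spanning parts and has its own promoter, to constant exons that every gene of that cluster shares. The β genes are encoded by a variable exon alone. The C-type genes at the ends of the α cluster (Pcdhac1, Pcdhac2) and the γ cluster (Pcdhgc3, Pcdhgc4, Pcdhgc5) are known to be expressed more evenly from neuron to neuron than the alternate genes.

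In the mm10 build all 58 genes lie on the plus strand of chromosome 18, from position 36930184, the start of Pcdha1, to 37841873, the end of the shared γ exons. The α genes end at 37187661, the β genes run from 37264938 to 37524479 and the γ genes start at 37661793. Their symbols are those of the GENCODE M21 annotation, in which a pair of gene identifiers carries the symbol Pcdha11. The first of these, ENSMUSG00000007440.10, starts at 37005203, where RefSeq (GRCm38.p6) places Pcdha10, and it is called the first Pcdha11 entry here. Of the 58 genes, 51 matched a RefSeq gene by position, and 50 of those had the same symbol. Pcdhgb8 is annotated as a polymorphic pseudogene.

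The libraries held 28786216 expected counts in replicate 1 and 29755033 in replicate 2, and levels are given as TPM, a relative abundance corrected for transcript length. Neuron markers stood at high levels in both, with Snap25 at 820 and 766 TPM and Slc17a7, the glutamate transporter of excitatory vesicles, at 554 and 538 TPM in replicates 1 and 2. Choroid plexus markers differed between the animals. Their summed level over 9 genes was 8.70 TPM in replicate 1 and 192 TPM in replicate 2, of which Ttr alone was 3.62 and 179 TPM, and the other 8 summed to 5.08 and 12.6 TPM. None was at 0, all 8 with enough counts were higher in replicate 2, and 7 of these were called at least 1.5-fold apart in the test described below. Of all genes tested, 1.17% were called higher in replicate 2. Markers of hippocampal fields also differed. All 4 dentate granule markers were higher in replicate 2, with sums of 114 and 142 TPM, and all 4 CA1 markers were lower, with sums of 254 and 212 TPM. All 4 interneuron markers were lower too, with sums of 379 and 346 TPM, as were 4 of 5 oligodendrocyte markers. Of 5 astrocyte markers 4 were higher, and of 4 meningeal markers 3 were higher while Dcn was lower, at 23.9 and 14.2 TPM. Microglial and endothelial markers went 2 each way. Markers of serotonergic neurons, whose axons reach the hippocampus but whose cell bodies do not lie in it, summed to 0.33 and 0.31 TPM.

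Nearly the whole family was detected. Of the 58 genes, 57 reached 1 TPM in both libraries, against 26.8% of all annotated genes and 57.8% of protein-coding genes. The exception was Pcdhb1, the first gene of the β array, with 2 and 5 counts (0.04 and 0.09 TPM). Raising the limit to 2 TPM left 46 genes. Pcdhb8 passed 1 TPM only with a 462-base transcript included, since its 3334-base transcript stood at 0.63 and 0.69 TPM. The second Pcdha11 entry, ENSMUSG00000102206.5, passed with its coding transcripts of 4583 and 5360 bases at 0. Because each library pools very many cells, these levels do not show how many neurons chose a gene, and few cells with much RNA cannot be told apart from many cells with little.

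The γ cluster held most of the family's RNA. Summed over genes, the γ cluster stood at 218 and 208 TPM (213 ± 6.85, SD, n = 2), the α cluster at 53.7 and 50.8 TPM (52.2 ± 2.06) and the β cluster at 53.6 and 53.4 TPM (53.5 ± 0.12). The γ genes thus made up 67.0% and 66.6% of the family's summed TPM, and in the gene table the α and β sums did not differ beyond the spread between the libraries. In the second deposited table, described below with its general shift in TPM, the α sum was the higher in both libraries, at 84.5 and 80.5 TPM against 75.6 and 77.9 TPM for β genes. Median levels per gene were 5.28 and 5.02 TPM for γ genes, 2.87 and 2.90 TPM for α genes and 2.50 and 2.58 TPM for β genes.

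In the gene table the C-type genes stood above the rest of the family, with the exception of Pcdhac1. For Pcdhgc4 this did not hold in the second table, where it stood at 10.9 and 9.66 TPM, below Pcdhga11 at 14.3 and 16.7 TPM. Pcdhgc5 was the most abundant member at 57.9 and 53.0 TPM in replicates 1 and 2. Pcdhgc3 followed at 34.4 and 35.5 TPM. Pcdhgc4, which is known to be needed for the survival of neurons, was listed at 29.6 and 23.1 TPM. Pcdhac2, at the downstream end of the α array, stood at 16.1 and 14.6 TPM, while its neighbour Pcdhac1 stood at 2.37 and 2.45 TPM, inside the range of the alternate α genes. The 53 members outside the C-type had a median of 3.24 and 3.21 TPM. Pcdhgc3, Pcdhgc4 and Pcdhgc5 together took 56.0% and 53.7% of the γ cluster's TPM, and Pcdhac2 alone took 30.0% and 28.8% of that of the α cluster.

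The deposited TPM intervals, whose level is not given in the sources used here, give the order of the leading genes within the gene table. They do not cover the difference between tables: the second-table values of Pcdhgc4 lie outside its intervals in both libraries, and its place there was the sixth and the seventh. Pcdhgc5 lay at 53.4 to 59.7 TPM in replicate 1 and 49.2 to 54.7 TPM in replicate 2, above every other member in both. The intervals of Pcdhgc3 (31.9 to 35.0 TPM) and Pcdhgc4 (25.0 to 33.3 TPM) overlapped in replicate 1 and were apart in replicate 2, where they ran from 33.2 to 36.2 and from 17.9 to 27.3 TPM. Pcdhac2 came next, at 14.7 to 16.4 and 13.3 to 14.9 TPM. Pcdhga11 followed at 8.44 to 9.95 and 9.89 to 11.5 TPM.

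**Figure D1:**
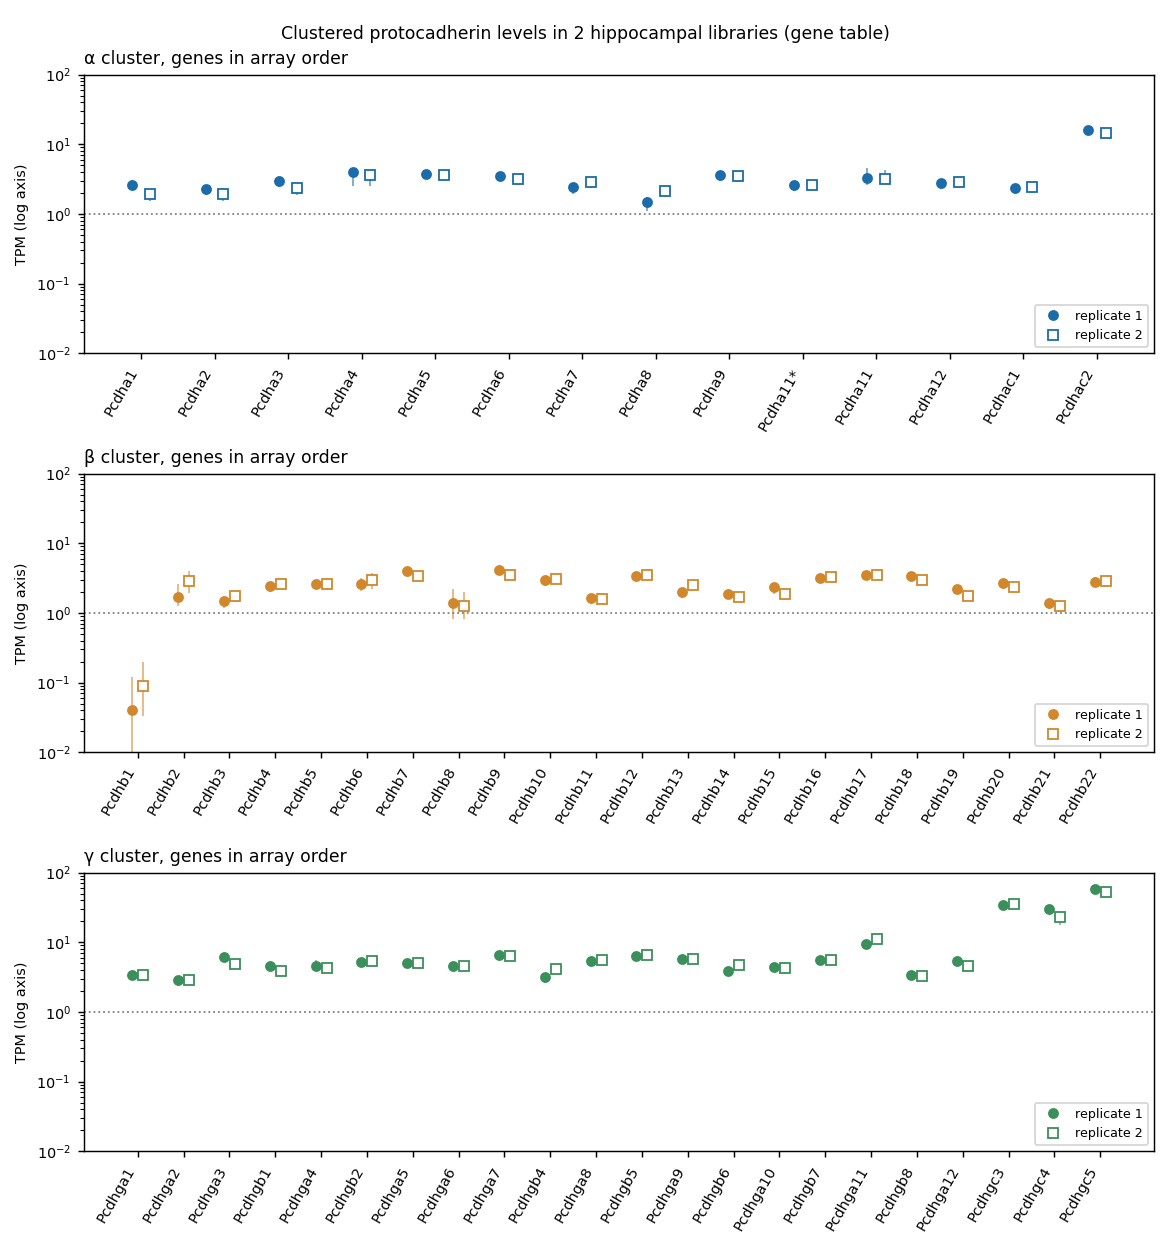
TPM of each clustered protocadherin in the gene table (vertical log axis), genes in their order along the chromosome, with replicate 1 as filled circles and replicate 2 as open squares; vertical lines are the deposited TPM intervals, the dotted line marks 1 TPM and Pcdha11* is the first Pcdha11 entry. The C-type genes Pcdhac2, Pcdhgc3, Pcdhgc4 and Pcdhgc5 stand above their arrays, and Pcdhb1 is the only gene below 1 TPM.

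Within each array the alternate genes lay close together in the gene table. The 12 alternate α genes spanned a 2.11-fold range of mean TPM there, and a 3.97-fold range in the second table. In the gene table the highest were Pcdha4 (3.98 and 3.67 TPM), Pcdha5 (3.76 and 3.58 TPM), Pcdha9 (3.58 and 3.46 TPM) and Pcdha6 (3.53 and 3.13 TPM). The lowest were Pcdha8 (1.46 and 2.16 TPM) and Pcdha2 (2.27 and 1.90 TPM). Pcdha4 differed from Pcdha5 in mean by less than its own spread between the libraries, and so did Pcdha6 from Pcdha9. The order was another in the second table, where Pcdha4 had the lowest mean of the 12 (2.78 TPM), next to Pcdha8 (2.84 TPM), and the second Pcdha11 entry, ENSMUSG00000102206.5, the highest (11.0 TPM).

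The β genes other than Pcdhb1 spanned a 2.90-fold range. Pcdhb9 (4.09 and 3.53 TPM), Pcdhb7 (3.94 and 3.42 TPM), Pcdhb17 (3.55 and 3.54 TPM), Pcdhb12 (3.35 and 3.49 TPM) and Pcdhb16 (3.16 and 3.32 TPM) were the highest. Pcdhb8, with 47.2 and 52.6 counts, was the lowest after Pcdhb1 at 1.38 and 1.25 TPM. The 19 γA and γB genes spanned 3.53-fold, from Pcdhga2 (2.91 and 2.90 TPM) and Pcdhgb8 (3.37 and 3.27 TPM) up to Pcdhgb5 (6.33 and 6.52 TPM) and Pcdhga11 (9.49 and 11.0 TPM). The γA and γB types were interleaved in level, with medians of 5.21 and 4.79 TPM for 12 γA genes and 4.55 and 4.79 TPM for 7 γB genes.

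A gene's place in its array was only weakly related to its level. Spearman's rho between order along the chromosome and mean TPM was 0.17 over 12 alternate α genes, 0.16 over 22 β genes and 0.29 over 19 γA and γB genes. These values describe genes that share libraries and, for α and γ, exons. For the alternate α genes rho ran from -0.0070 to 0.65 over the libraries and tables.

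The division of reads among members was far less certain for α and γ genes than for β genes. The gene table gives a posterior standard deviation (SD) of each count, which reflects how firmly reads could be assigned to a gene. As a percent of the count its median was 5.72% and 5.32% for α genes, 3.93% and 3.86% for γ genes and 0.443% and 0.475% for β genes. By rule, a gene was marked as sharing reads if its count was fractional with an SD of at least 1% of it in either library. So marked were 14 of 14 α genes, 22 of 22 γ genes and 4 of 22 β genes, against 10.5% of all genes tested between the libraries. The widest SD was that of Pcdha4, at 13.5% and 9.68% of its count.

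The shared sequence can be counted in the annotation. The longest coding transcript of each gene, for Pcdhgb8 its longest transcript of the polymorphic pseudogene class, was read in windows of 100 bases, the read length that the deposited effective lengths imply. A median of 44.2% of windows in α transcripts and 55.9% in γ transcripts occurred in no other gene, against 99.8% in β transcripts. Of the β transcripts, 9 had no shared window at all. Pcdhb2 and Pcdhb5 are among these 9 though both were marked as sharing reads, and Pcdhb22, with 356 shared windows, was not marked. The γ constant exons put the same window in up to 24 genes, and the α constant exons in up to 14. Over all 58 genes, Spearman's rho between the share of own windows and the posterior SD as a percent of the count was -0.88 in replicate 1 and -0.87 in replicate 2. This rho mostly sets β genes apart from the others, since within clusters it lay between -0.27 and -0.56. The count itself was more closely related to the percent SD within α genes (rho -0.75 and -0.54) and γ genes (-0.76 and -0.64). Within β genes it was less so (-0.33 and -0.37).

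Pcdha4 stood apart on both axes. Only 3.51% of its windows were its own. A further 42.1% were shared with a single other entry, Gm42416 (36952741 to 37840200), which joins the Pcdha4 variable exon to the γ constant exons and is annotated as protein-coding. Among β genes the least distinct were Pcdhb21 and Pcdhb22, neighbours that had 356 windows in common.

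**Figure D2:**
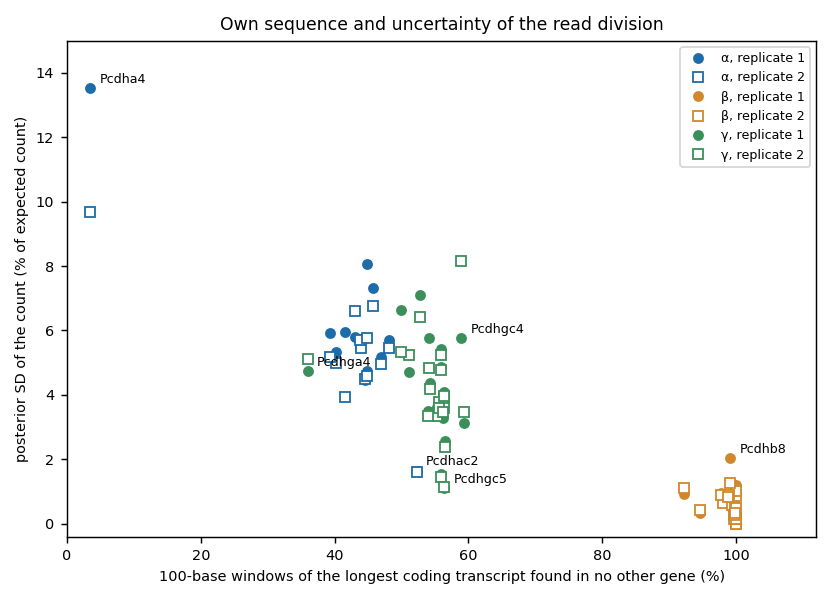
Percent of 100-base windows of a gene's longest coding transcript that occur in no other gene (horizontal) against the posterior SD of its count as a percent of the expected count (vertical), for α, β and γ genes in replicate 1 (filled circles) and replicate 2 (open squares). The β genes lie at the lower right with at least 92.3% own windows, and Pcdha4 lies at the upper left with 3.51%.

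Nearly all members lay within 1.5-fold between the 2 animals, as did most genes tested. Libraries were compared gene by gene with an exact two-sided binomial test on counts, which covers counting error only and compares these libraries, not conditions. Among the 57 members with enough counts to test, 29 were higher in replicate 2 and 28 in replicate 1, and 56 lay within 1.5-fold. So did 16946 of all 18270 genes tested and 12946 of the 13196 genes in the members' range of counts. The median absolute log2 ratio was 0.13 for the members and 0.11 for all 18270 genes tested. It was 0.09 for the 13196 genes in the members' range of counts, which were not matched to the members in depth within that range. By cluster it was 0.12 for α, 0.13 for β and 0.07 for γ genes.

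Pcdha8 alone passed an adjusted p of 0.05 and the 1.5-fold minimum, 1 of 57 members against 1.8% of all genes tested, or 1.17% counted in its direction, higher in replicate 2. Its counts were 157 and 244 in replicates 1 and 2, or 1.51-fold apart (95% interval 1.23 to 1.86, adjusted p = 0.00114, exact binomial test with Benjamini-Hochberg adjustment). The difference was 4.33 times the combined posterior SD of the counts, and the deposited TPM intervals, 1.11 to 1.74 and 1.76 to 2.46 TPM, did not overlap. Pcdha8 is marked as sharing reads, and its fold lies at the edge of the minimum: no member passed at 2-fold. The choroid plexus markers, 8.70 and 192 TPM in sum, and the dentate granule markers, 114 and 142 TPM, also stood higher in replicate 2, while the CA1 markers, 254 and 212 TPM, stood lower. Interneuron markers and 4 of 5 oligodendrocyte markers stood lower as well. The part of these markers in the Pcdha8 difference was not tested.

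With no fold minimum, 7 members passed an adjusted p of 0.05 in the exact binomial test, against 11.2% of all genes tested. Pcdhgc4, with 1605 and 1353 counts, was lower in replicate 2, at a ratio of 0.820 to replicate 1 (95% interval 0.762 to 0.882, adjusted p = 2.98e-06 by the same exact test). The difference was 2.04 times its combined posterior SD, whose parts were 5.76% and 8.16% of the count in replicates 1 and 2. Most of the difference in counts lay on a transcript of 2272 bases, with 1031 and 810 counts, which the second table lists at 0. The full-length transcript had 438 and 430 counts, and the second table gives the gene 711 and 662 counts. Pcdhga11 was higher in replicate 2, with 909 and 1106 counts, 1.18-fold (95% interval 1.08 to 1.29, adjusted p = 0.00314, exact test). Pcdhgc5, Pcdhgc3 and Pcdhac2 did not pass. Their ratios of replicate 2 to replicate 1 were 0.971 (0.933 to 1.01), 1.05 (1.00 to 1.11) and 0.927 (0.869 to 0.988).

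**Figure D3:**
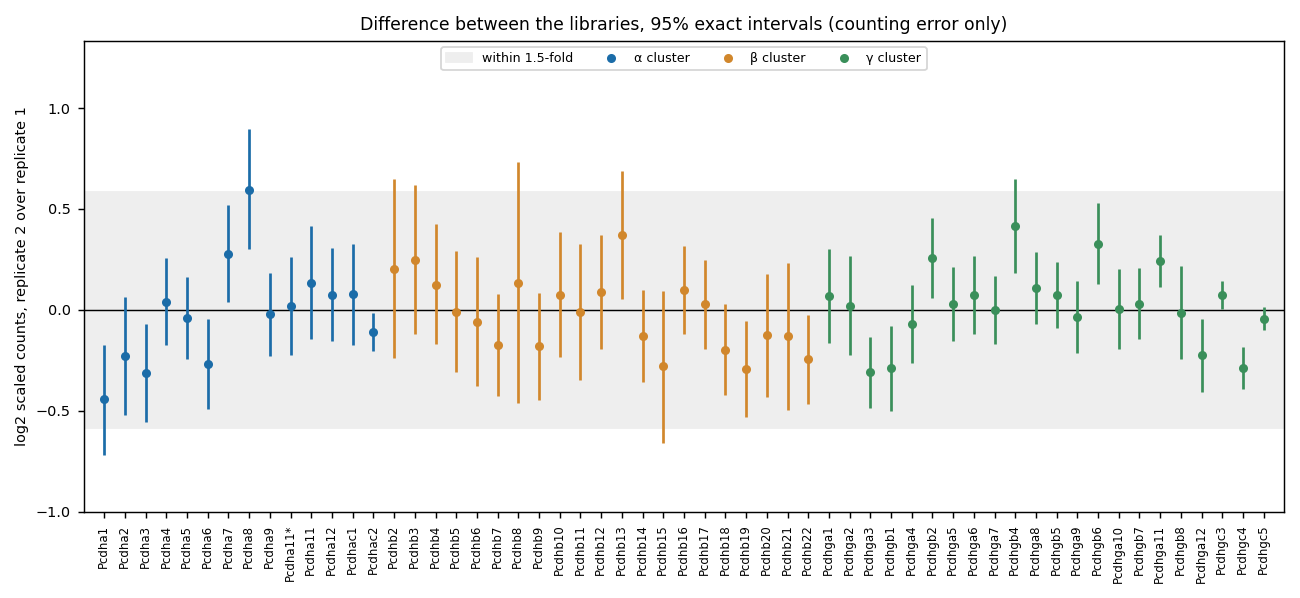
Log2 ratio of scaled counts, replicate 2 over replicate 1, for the 57 tested members in chromosome order; bars are exact 95% intervals for counting error only, and the grey band is 1.5-fold in either direction. Pcdha8 is the only point beyond the band, and points fall on both sides of 0 in each cluster.

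The same reads were quantified in a second deposited table by another method, which gives a check on the read division. In that table TPM was mostly higher. The median log2 ratio of second to first table was 0.79 over all genes compared and 0.58 over the members, and with both tables rescaled over protein-coding genes it was -0.03 and -0.24. Levels in the second table are to be read beside these shifts. A difference was called where TPM was 2-fold apart in the same direction in both libraries, with no test, since both tables come from the same reads.

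By that rule 2 of 57 members differed, against 27.1% of all genes compared. The 1 lower in the second table (3.01% of all genes) was Pcdhgc4, at 29.6 and 23.1 TPM in the gene table and 10.9 and 9.66 TPM in the second, a mean log2 ratio of -1.35. The 1 higher in the second table (24.1% of all genes) was the second Pcdha11 entry, ENSMUSG00000102206.5, at 3.24 and 3.21 TPM and then 12.8 and 9.27 TPM, a mean log2 ratio of 1.75. Rescaled over protein-coding genes, 2 members differed against 14.1% of all genes, Pcdhgc4 again and Pcdha4, both lower. The members next in order were Pcdhb22 and Pcdhga12 on the higher side, with mean log2 ratios of 0.81 and 0.76, close to the median of all genes. On the lower side they were Pcdha4 and Pcdhb8, at -0.47 and -0.12.

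**Figure D4:**
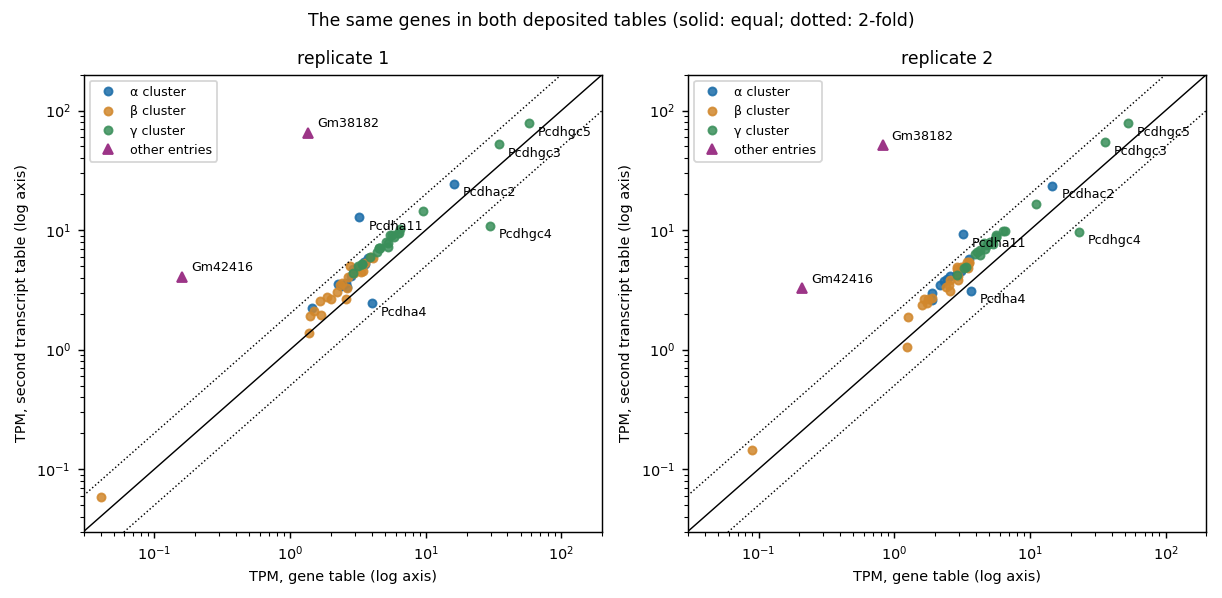
TPM of each member in the gene table (horizontal) and in the second transcript table summed per gene (vertical), log axes, replicate 1 on the left and replicate 2 on the right; triangles are Gm38182 and Gm42416, which overlap the arrays. Most members lie between the line of equality and the upper 2-fold line, with Pcdhgc4 below the lower line and the second Pcdha11 entry above the upper line.

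Count totals of the clusters were nearly the same in both tables, while their TPM sums were not: means in the second table were 82.5 TPM for α, 76.7 TPM for β and 289 TPM for γ genes. Counts summed over the γ genes were 0.378% and 0.453% higher in the second table, those over the α genes 1.64% and 2.66% higher, and the difference for the β genes was -0.419% and -1.24%. The order of genes was also much the same for γ (Spearman's rho 0.99 and 0.97 between tables, 22 genes) and β genes (0.96 and 0.95, 22 genes). It was looser for α genes, at 0.62 and 0.74 over 14 genes. The differences for the genes named above were larger than those of the cluster count sums.

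Pcdhgc4 shows where the tables parted. The first transcript tables put 77.9% and 74.9% of its TPM on a protein-coding transcript of 2272 bases, at 23.1 and 17.3 TPM. Only 6.95% of the 100-base windows of that transcript occur in no other gene. While 93.0% of them occur in Pcdhgc5, 0 are shared with Pcdhgc5 alone, and a window occurs in up to 24 genes. The second table lists the same transcript at 0 in both libraries. The full-length transcript of 5024 bases, with 58.9% own windows, stood at 4.32 and 4.05 TPM in the first tables and at 8.79 and 8.48 TPM in the second. A retained-intron transcript of 3100 bases, with only own windows, stood at 2.21 and 1.74 TPM and at 2.12 and 1.18 TPM.

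Without the 2272-base transcript, a choice made after its values were seen, Pcdhgc4 stood at 6.53 and 5.79 TPM in the first tables. Its place in the family then went from the third to the fifth in replicate 1 and from the third to the seventh in replicate 2. The share of the γ cluster's TPM held by its C-type genes went from 56.0% and 53.7% to 50.8% and 49.5%, close to the 49.1% and 49.0% of the second table. Pcdhgc5 and Pcdhgc3 led the family in either table, at 78.7 and 78.0 TPM and at 52.0 and 54.6 TPM in the second.

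Gm38182 differed the other way. This noncoding entry (37823879 to 37840382) lies over the γ constant exons, and 82.4% of the windows of its 741-base transcript also occur in Pcdhgc4. It stood at 1.36 and 0.82 TPM (20.8 and 15.2 counts) in the first tables and at 65.2 and 51.3 TPM (409 and 323 counts) in the second. Within the second table its level sat on the 741-base transcript in replicate 1 (51.3 TPM) and on a 742-base transcript in replicate 2 (48.9 TPM), and each was lower in the other library. Summed with Gm38182, Pcdhgc4 had 1626 and 1368 counts in the first tables and 1120 and 986 in the second, a difference of -31.1% and -27.9%. No window was shared by these entries alone, and whether reads passed from one to the other was not tested.

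**Figure D5:**
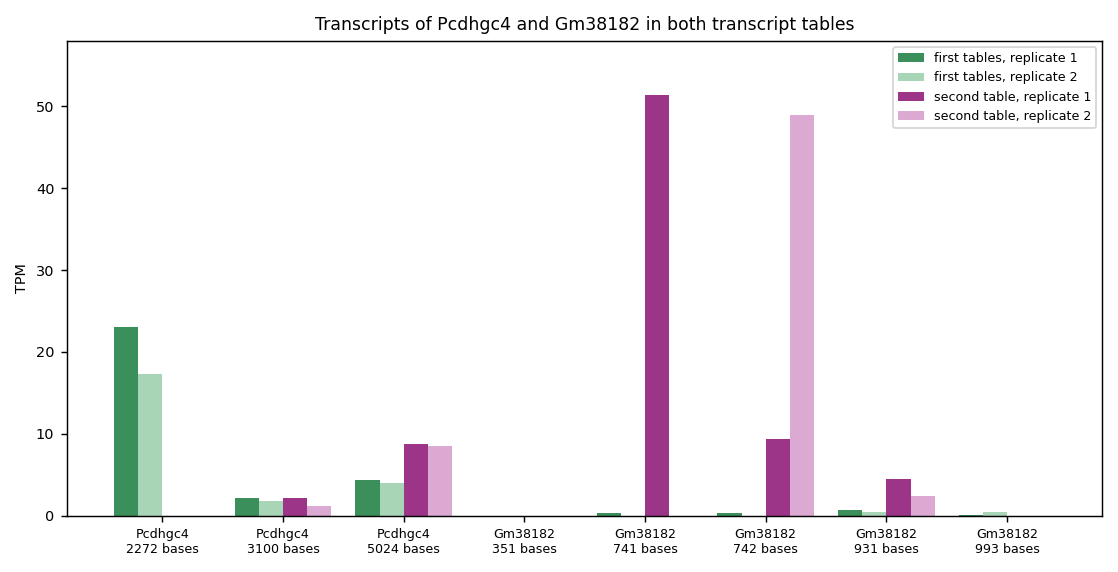
TPM of each annotated transcript of Pcdhgc4 and Gm38182, labelled by length, in the first tables (green) and the second table (purple) for replicates 1 and 2. The 2272-base Pcdhgc4 transcript is present only in the first tables, and the 741- and 742-base Gm38182 transcripts carry the second table's level, each mainly in 1 library.

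In the α cluster Pcdha4 and an overlapping entry also differed in opposite directions. Pcdha4 stood at 3.98 and 3.67 TPM in the first tables and at 2.45 and 3.11 TPM in the second. Gm42416, which shares its variable exon, stood at 0.16 and 0.21 TPM in the first tables and at 4.07 and 3.26 TPM in the second. The second Pcdha11 entry differed through its transcripts: both coding transcripts of near full length, 4583 and 5360 bases, were at 0 in both tables and libraries. Its reads lay on retained-intron transcripts of 3323 bases (1.21 and 1.79 TPM in the first tables) and 4038 bases (1.40 and 1.16 TPM), and on a coding fragment of 625 bases. That fragment accounted for most of the difference, at 0.63 and 0.27 TPM in the first tables and 8.61 and 4.37 TPM in the second, from 37.3 and 19.1 counts.

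Short coding fragments also bore on a few other members, picked here after their values were seen. Pcdhb2 stood at 1.69 and 2.91 TPM in replicates 1 and 2 with 81.5 and 95.8 counts. A 511-base transcript of it held 2.35 and 13.4 of those counts but 0.28 and 1.5 TPM, and its 2813-base transcript stood at 1.42 and 1.41 TPM. For Pcdhb8 a 462-base transcript held 54.6% and 44.5% of TPM from 5.61 and 4.35 counts. For Pcdhgc5 a 593-base transcript held 6.21 and 4.11 TPM in the first tables and almost none in the second, while its 4741-base transcript stood at 49.6 and 47.5 TPM in the first and 76.3 and 75.6 TPM in the second. Retained-intron transcripts held 8.14% and 7.82% of α TPM and 4.96% and 4.49% of γ TPM, and no β gene had one annotated.

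In the gene table other annotated genes inside the arrays were low, but for Gm38182 and Gm42416 this did not hold in the second table, as given above. Of 27 such entries, 15 on the minus strand, 5 reached 1 TPM in both libraries in the gene table, against 26.8% of all annotated genes. Taf7, a subunit of the general transcription factor TFIID that lies between the β and γ arrays on the minus strand, stood at 2.17 and 2.69 TPM. The others were the pseudogenes Gm36858 (1.40 and 1.72 TPM), Gm18150 (1.07 and 1.27 TPM), Gm19035 (1.31 and 1.30 TPM) and Gm20162 (1.01 and 1.02 TPM), all on the plus strand. Whether reads were counted by strand is not given in the sources used here, and antisense entries and the genes they overlap may not be separated.

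Most genes known to act on promoter choice were expressed. Of 22 chromatin genes, 20 reached 1 TPM in both libraries, against 57.8% of protein-coding genes, and none was called apart between the libraries, against 1.8% of all genes tested. With no fold minimum 1 of the 22 passed the adjusted p, against 11.2% of all genes tested. It was Nipbl, a cohesin loader named here after its values were seen (1.12-fold higher in replicate 2, adjusted p = 0.000384, exact binomial test). Ratios were above 1 for 19 of the 22, against 9094 of 18270 genes tested, and their median log2 ratio was 0.06. Among the highest in level was Dnmt3a, a DNA methyltransferase, at 37.4 and 31.6 TPM. Dnmt3b, the methyltransferase known to act on these promoters in the embryo, was at 0.74 and 0.65 TPM, and Uhrf1, which guides maintenance methylation, at 0.56 and 0.52 TPM.

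Partners of the proteins were expressed as well. All 17 cytoplasmic partners and effectors reached 1 TPM, against the same 57.8%, and none was called apart between the libraries, against 1.8%. With no fold minimum 4 passed the adjusted p, against 11.2% of all genes tested. All 4 were higher in replicate 2, among them the leading pair below. The 17 were led by Ptk2b, the kinase PYK2 that the α and γ constant domains bind, at 294 and 310 TPM. Nckap1, a subunit of the actin-regulating WAVE complex, followed at 217 and 222 TPM. All 8 genes of the cleavage machinery passed, against the same 57.8%, led by the γ-secretase subunits Aph1a (32.3 and 33.0 TPM) and Psenen (33.0 and 31.6 TPM). None was apart with the fold minimum, against 1.8% of all genes tested, or without it, against 11.2%. The synaptic partners Nlgn2 and Nlgn1 stood at 81.6 and 81.6 TPM and at 44.5 and 41.1 TPM.

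Non-clustered protocadherins, which lie alone in the genome, reached higher levels per gene. Of 12 such genes 11 passed 1 TPM in both libraries, against 57.8% of protein-coding genes. Their medians were 26.5 and 27.1 TPM, against 3.36 and 3.30 TPM for the clustered genes. Pcdh1 (157 and 146 TPM) and Pcdh9 (75.6 and 71.2 TPM) were the highest. Their 12 genes summed to 451 and 425 TPM and the 58 clustered genes to 325 and 312 TPM. Of the 12, 2 differed between the libraries, both higher in replicate 1 (0.629% of all genes tested were so): Pcdh18 at 1.84 and 1.08 TPM, and Pcdh12, an endothelial protocadherin, at 0.38 and 0.08 TPM. With no fold minimum 7 of the 12 passed the adjusted p, against 11.2% of all genes tested. Among them was Pcdh1, at a ratio of 0.947 with 13810 and 13455 counts, a depth at which small folds pass. Of the 7 genes, 6 were higher in replicate 1.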

How the data were processed

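Total RNA from 2 hippocampal samples was analysed from the deposited tables. The authors' gene table gives expected counts, TPM, a posterior standard deviation of each count and TPM interval bounds, per the file headers. The authors also deposited a transcript table with these columns and each transcript's share of its gene in percent. Estimated counts and TPM of another quantification stand in a second transcript table, per the file headers. Build mm10 and GENCODE M21 are named in the description deposited with the files. The program is not given in the sources used here, nor is the aligner or the strand setting. The deposited TPM values were scaled over all entries of a table. Effective lengths were 99 bases below the transcript length in the first tables and 339 and 342 bases below it in the second, which bears on short transcripts most.

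Members were matched by symbol. The members, the gene lists and the rule for named genes were chosen with earlier results of these data known. Named were the 5 highest and 2 lowest genes of each cluster by mean TPM, the C-type genes, members apart between the libraries, the 3 farthest apart between tables in each direction, other genes inside the arrays at 1 TPM in both libraries and, per list, the 2 highest, those under 1 TPM in both libraries and those apart. Of the genes this rule names, 1 is not reported here. Library sizes were scaled by TMM (edgeR 4.0.16, R 4.3.3). Expected counts were rounded, and genes with a mean count of at least 10 were compared by an exact two-sided binomial test (smaller tail doubled) with Benjamini-Hochberg adjustment over 18270 genes. A gene was called apart under an adjusted p of 0.05 with a fold of at least 1.5, and folds had 0.5 counts added. With 1 library per side, edgeR's quasi-likelihood test has no residual degrees of freedom. The test was run on simulated data. Intervals are exact 95% Clopper-Pearson intervals and cover counting error only, since 1 library per side leaves no spread between animals to estimate. Reads carry no molecular identifiers. Tables were compared after adding 0.01 TPM, for genes at 1 TPM on average in either. Spike-ins held 0.421% and 0.408% of counts and were left out of tests. Window sharing was counted on GENCODE M21 transcripts, transcript strand, in 100-base windows. No sequence is printed.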

Additional observations from a re-analysis of the deposited data

How the results depend on the processing

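No paired analysis was possible because the samples form a single group with 1 library for each replicate number. The count of 57 members at 1 TPM was 57 under the 6 alternatives of value, denominator, library and a limit of 0.5 TPM, and 46 at 2 TPM. Pcdha8 was the member apart between the libraries under 3 other scalings, both other count minimums, posterior mean counts and the second table, with log2 ratios of 0.59 to 0.63 and adjusted p of 0.000231 to 0.0017 in the exact binomial test. With no fold minimum 7 members were apart, against 11.2% of all genes tested. At 2-fold 0 were (Pcdha8 at a log2 ratio of 0.59), against 172 of all 18270 genes tested. Among genes not marked as sharing reads 0 members were apart, but there Pcdha8 is not tested. Without either library no test between them can be made. Members 2-fold apart between tables numbered 2 under 7 alternatives, 21 at 1.5-fold and 0 at 3-fold. Summed TPM rose with the second table (α 82.5, β 76.7, γ 289) and with rescaling over protein-coding genes (α 119, β 121.5, γ 483), and the β sum was 52.6 with posterior mean TPM. Over leaving out either library, the sums ran from 50.8 to 53.7 (α), 53.4 to 53.6 (β) and 207.9 to 217.6 TPM (γ). For 24 member levels, in alternatives chosen after seeing the data, the second table gave 21 higher and 3 lower values by more than 1 SD, the rescaling 24 higher, and posterior mean TPM 2 higher and 8 lower, with 14 within 1 SD. Without its 2272-base transcript the mean level of Pcdhgc4 was 6.16 TPM. An SD from 2 libraries is itself imprecise. The lowest α or γ count in either library was 157.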
